A study of Homo sapiens with 6 samples.

Results

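Ion channel genes were examined on 2 gene lists deposited with an RNA sequencing study of SiHa, an established human papillomavirus-positive line from a squamous cell carcinoma of the cervix. The genes were chosen by name: every symbol starting as the potassium, sodium, calcium, CLCN chloride, TRP, cyclic nucleotide-gated, P2X and neurotransmitter-gated channel families do. This rule took 118 of the 8942 symbols that stood on exactly 1 list. The study compared cells that had crossed a transwell membrane (MIG, migrated) with cells that had not (NON MIG), with 3 libraries of each fraction, all from SiHa cells collected 10 hours after seeding, with no drug or genetic change named in the labels. SiHa is the only line, cells scraped from the wells were pooled before RNA was extracted, and the labels do not say whether the 3 replicates came from separate cultures.

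The lists are named for high and low expression and give each gene's hg19 position but no value per library. Neither the labels nor the file headers state which libraries or which cut-off made the lists, so membership was read as a level and not as a change with migration. The fragment table of the 6 libraries names loci by assembly IDs that the files do not pair with genes, so no fold change, error or test for a channel can be given. Its libraries held 23166447 to 25662866 assigned fragments in the migrated and 18226280 to 33466924 in the non-migrated fraction, and 7820 of 26006 loci (30.1%) had none in any library. Of 10 markers of cervical epithelium, KRT7, KRT8, KRT17, KRT18 and CDKN2A were high and KRT5 was low, while KRT19, EPCAM, CDH1 and TP63 were on neither. Markers of excitable cells stood on the low list or on neither, at 3 and 6 of 10 for neurons and 7 and 5 of 12 for striated muscle, except TUBB3, which was on the high list. Of all 20050 RefSeq protein coding genes, 22.3% were high and 18.8% low, so most genes of any kind were not high. Whether the marker counts differ from these shares was not tested.

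Ion channels are membrane proteins that let ions cross a membrane through a gated pore. Most are assembled from pore-forming subunits, often with auxiliary subunits that set gating and trafficking. Voltage-gated and transmitter-gated channels carry the electrical signals of nerve and muscle. Other channels serve nearly every cell, setting the membrane potential, cell volume, calcium entry and the ion content of endosomes and lysosomes.

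Listed channel genes stood mostly on the low list. Of the 118 symbols, 8 were high (6.78%) and 110 were low (93.2%), whereas 50.6% of all listed symbols were high and 49.4% low. A gene on the low list may be expressed in few cells, at a low level in many, or not at all. The lists carry no values and the RNA is from bulk cells, so these cannot be told apart. The names were then sorted by what they encode. Of the 8 high names, 5 were counted as channel subunits: KCNN4, CLCN3, CLCN7, TRPM7 and GABRE. CLCN3 and CLCN7 were counted with the CLCN chloride channels by name, although both encode exchangers of chloride for protons. Among the 110 low names, 96 are subunits, 13 are antisense or other transcripts named after channel genes and 1 encodes a protein that is not a subunit. Pore-forming subunits gave 5 high and 83 low, and auxiliary subunits gave 0 high and 13 low.

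The 5 high subunits come from 4 classes and have different roles. KCNN4 (hg19 chromosome 19, 44270685 to 44285409, minus strand) encodes the intermediate-conductance potassium channel that opens when cytosolic calcium rises. TRPM7 (chromosome 15, 50844670 to 50979012, minus strand) is a magnesium- and calcium-permeable channel fused to a protein kinase. CLCN3 (chromosome 4, 170533784 to 170644824, plus strand) and CLCN7 (chromosome 16, 1494935 to 1525581, minus strand) encode exchangers of chloride for protons in endosomes and lysosomes. GABRE (chromosome X, 151121596 to 151143151, minus strand) encodes the epsilon subunit of the GABA-A receptor, a chloride channel opened by the transmitter GABA. None of the 5 is a voltage-gated sodium, potassium or calcium channel.

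Promoter sequence was set beside list membership, and 8 windows are shown because they pair 4 of the 5 high subunits with a low gene of the same family or neighbourhood. CLCN3 is not shown, and another low relative could give another contrast. Each is the 250 bases before a RefSeq start in GRCh38.p14, read 5′ to 3′ on the strand of the gene, with CpG dinucleotides in capitals. The pair of CLCN genes lies at chr16:1475029-1475278 (minus strand) and chr7:143315861-143316110 (plus strand). CLCN1, on the low list, is the chloride channel of skeletal muscle.
CLCN7: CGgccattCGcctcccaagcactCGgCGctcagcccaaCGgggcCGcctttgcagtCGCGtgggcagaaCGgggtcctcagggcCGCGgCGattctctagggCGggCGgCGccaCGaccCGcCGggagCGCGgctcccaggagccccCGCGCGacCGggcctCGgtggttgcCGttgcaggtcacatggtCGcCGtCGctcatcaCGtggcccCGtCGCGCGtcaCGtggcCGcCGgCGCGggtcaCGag
CLCN1: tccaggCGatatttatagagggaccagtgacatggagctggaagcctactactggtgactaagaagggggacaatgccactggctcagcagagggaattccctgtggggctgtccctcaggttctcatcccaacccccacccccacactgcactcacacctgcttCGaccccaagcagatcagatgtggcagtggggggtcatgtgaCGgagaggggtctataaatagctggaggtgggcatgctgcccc
The high gene held 40 CpGs in these 250 bases and the low gene 3. The TRPM pair lies at chr15:50686798-50687047 and chr15:31161161-31161410, both on the minus strand. TRPM1 is a channel of retinal bipolar cells, and of its 2 RefSeq windows the richer in CpG is shown.
TRPM7: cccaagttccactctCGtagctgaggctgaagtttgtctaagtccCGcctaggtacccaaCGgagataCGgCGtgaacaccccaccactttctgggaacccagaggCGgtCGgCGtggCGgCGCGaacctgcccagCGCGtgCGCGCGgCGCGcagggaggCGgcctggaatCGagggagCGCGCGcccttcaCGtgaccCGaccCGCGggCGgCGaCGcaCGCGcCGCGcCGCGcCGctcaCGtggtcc
TRPM1: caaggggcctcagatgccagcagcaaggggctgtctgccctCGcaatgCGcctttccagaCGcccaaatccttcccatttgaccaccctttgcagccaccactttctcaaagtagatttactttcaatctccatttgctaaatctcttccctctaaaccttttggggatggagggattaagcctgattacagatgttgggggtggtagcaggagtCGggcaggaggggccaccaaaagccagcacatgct
TRPM7 had 38 CpGs and TRPM1 had 4. The contrast depends on the low gene picked, since TRPM2, also low, reached a ratio of observed to expected CpG of 0.944 in the richest of its windows, against 0.341 at TRPM1 and 1.19 at TRPM7. The KCNN pair lies at chr19:43780974-43781223 (minus strand) and chr19:17966857-17967106 (plus strand). KCNN1 encodes a small-conductance relative of KCNN4 that is known from neurons, and the richer of its 2 windows is shown.
KCNN4: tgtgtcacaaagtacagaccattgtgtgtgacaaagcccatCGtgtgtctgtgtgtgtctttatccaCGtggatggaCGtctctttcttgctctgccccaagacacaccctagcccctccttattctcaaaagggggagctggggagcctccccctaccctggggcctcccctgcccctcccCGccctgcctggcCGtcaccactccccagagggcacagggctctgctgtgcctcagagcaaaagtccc
KCNN1: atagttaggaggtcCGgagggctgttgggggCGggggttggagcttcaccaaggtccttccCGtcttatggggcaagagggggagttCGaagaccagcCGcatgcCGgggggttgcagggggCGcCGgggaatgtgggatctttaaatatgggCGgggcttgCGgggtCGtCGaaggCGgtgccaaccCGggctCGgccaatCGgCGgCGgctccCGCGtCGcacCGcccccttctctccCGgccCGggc
Here the order was turned, with 5 CpGs in the high gene and 24 in the low gene. The last pair are neighbours on chromosome X, GABRE at chrX:151974677-151974926 (minus strand) and CNGA2 at chrX:151734496-151734745 (plus strand). CNGA2 encodes the cyclic nucleotide-gated channel of olfactory neurons.
GABRE: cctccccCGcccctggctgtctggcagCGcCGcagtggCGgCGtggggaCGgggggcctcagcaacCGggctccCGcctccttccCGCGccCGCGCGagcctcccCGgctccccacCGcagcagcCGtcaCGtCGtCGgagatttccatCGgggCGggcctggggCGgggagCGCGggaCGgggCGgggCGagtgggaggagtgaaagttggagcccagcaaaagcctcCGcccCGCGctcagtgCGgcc
CNGA2: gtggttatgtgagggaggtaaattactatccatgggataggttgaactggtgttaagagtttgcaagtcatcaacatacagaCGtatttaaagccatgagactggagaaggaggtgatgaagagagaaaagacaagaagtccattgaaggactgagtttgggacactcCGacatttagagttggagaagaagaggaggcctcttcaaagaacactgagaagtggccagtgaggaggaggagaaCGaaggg
GABRE had 31 CpGs and CNGA2 had 3.

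To count by class, the listed symbols were set against the 243 protein coding channel subunits that RefSeq names under the same rule. Of these, 5 were on the high list (2.06%), against 22.3% of all 20050 RefSeq protein coding genes. On the low list stood 96 (39.5%), against 18.8% of all protein coding genes. The remaining 142 subunits (58.4%) were on neither list. The differences between classes below are descriptions, since genes are not replicates and the lists carry no error.

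**Figure D1:**
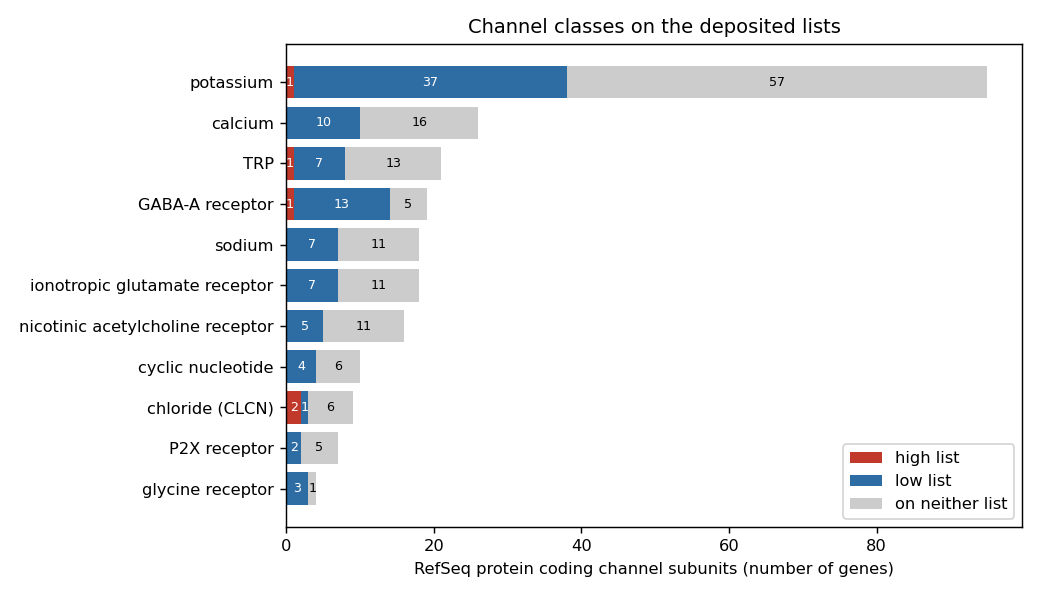
Number of RefSeq protein coding channel subunits of each class (horizontal axis, genes) on the high list, the low list or neither. The high list appears in 4 of 11 classes, with 2 CLCN genes and 1 gene each among potassium channels, TRP channels and GABA-A receptors, and the low list in every class.

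Potassium channels formed the largest class, with 1 of 95 subunits high, 37 low and 57 on neither list. Voltage-gated pore subunits gave 15 of 40 low and 0 high. The low ones were KCNA1 to KCNA6 and KCNA10, KCNB2, KCNC2, KCND2, KCNG2, KCNG4, KCNH6, KCNH7 and KCNV1, several of which repolarise neurons or the heart. Of the KCNA family only KCNA7 was on neither list. The KCNQ genes and KCNH1, a voltage-gated channel found in many tumours, were on neither.

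Inward rectifiers, which hold cells near the potassium equilibrium potential, gave 7 of 16 low, namely KCNJ3, KCNJ4, KCNJ5, KCNJ6, KCNJ8, KCNJ11 and KCNJ16. KCNJ8 and KCNJ11 encode pores of channels that close when ATP is high, and KCNJ3, KCNJ5 and KCNJ6 encode pores opened by G proteins. Background channels of the KCNK family gave 5 of 15 low, KCNK9, KCNK10, KCNK16, KCNK17 and KCNK18, with KCNK1, KCNK5 and KCNK6 among the 10 on neither list. Channels opened by internal calcium or sodium gave KCNN4 high against 5 of 8 low, which were KCNN1, KCNN2, KCNN3, KCNT2 and KCNU1. The KCNN family was therefore split between the lists, with its intermediate-conductance member high and its 3 small-conductance members low. KCNMA1, the pore of the large-conductance channel, was on neither list, while its auxiliary subunits KCNMB1 and KCNMB2 were low, as were KCNE1, KCNE3 and KCNIP1.

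Sodium channels gave 7 of 18 low and 0 high. SCN1A, SCN7A, SCN9A and SCN10A, pores known from neurons and glia, were low, as was the auxiliary subunit SCN2B. SCN8A, a pore of neurons, was on neither list. The epithelial sodium channel, which absorbs sodium across tight epithelia, was split, with SCNN1B and SCNN1G low and SCNN1A and SCNN1D on neither.

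Calcium channels gave 10 of 26 low and 0 high. The 3 low pores, CACNA1C, CACNA1F and CACNA1S, all encode L-type channels, while CACNA1D, the remaining L-type gene, and all pores of the N, P/Q, R and T types were on neither list. Genes counted by name as auxiliary subunits gave 7 of 16 low, 6 of them CACNG genes (CACNG1, CACNG2, CACNG3, CACNG5, CACNG7 and CACNG8) and CACNA2D4. Whether each CACNG protein serves calcium channels was not examined. All 4 cytoplasmic beta subunits, CACNB1 to CACNB4, were on neither list.

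CLCN genes were the only class with more members high than low, at 2 high, 1 low and 6 on neither of 9. The high genes were the intracellular exchangers CLCN3 and CLCN7, and the low gene was CLCN1 of the muscle surface. With 3 listed genes the counts are too few to rank this class against others, and CLCN4, CLCN5 and CLCN6, further intracellular exchangers, were on neither list.

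TRP channels, which respond to lipids, heat, touch or chemicals, gave 1 of 21 high and 7 low. TRPM7 was high, and TRPM1, TRPM2 and TRPM5, the last a channel of taste cells, were low. In the TRPC family 4 of 6 were low, among them TRPC4 and TRPC5. All 7 TRPV and TRPA genes were on neither list. Cyclic nucleotide-gated channels gave 4 of 10 low, among them the olfactory subunit CNGA2 and the cone photoreceptor subunits CNGA3 and CNGB3.

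Among transmitter-gated receptors, the GABA-A receptor gave 13 of 19 subunits low (68.4%) and GABRE high. The low genes included the alpha subunits GABRA2, GABRA4, GABRA5 and GABRA6, the beta subunits GABRB1 and GABRB2, the gamma subunits GABRG1 and GABRG3, and GABRP and GABRR1. Receptors of the usual kind need alpha and beta subunits together. GABRA3, GABRD and GABRQ were among those on neither list.

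Glycine receptors gave GLRA2, GLRA3 and GLRB low of 4. Glutamate receptors gave 7 of 18 low, among them the AMPA subunits GRIA1, GRIA2 and GRIA4, the kainate subunit GRIK3 and the NMDA subunits GRIN2A and GRIN2B. GRIN1, which every NMDA receptor contains, was on neither list. Nicotinic receptors, opened by acetylcholine, gave 5 of 16 low, the muscle subunit CHRNA1 and CHRNA2, CHRNA4, CHRNA6 and CHRNB3. CHRNA3, CHRNA5 and CHRNB4, which form 1 receptor type, and CHRNA7 were on neither list. P2X receptors, opened by extracellular ATP, gave P2RX1 and P2RX3 low, and P2RX4 and P2RX7 were among the 5 on neither.

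Of the 101 listed subunits, 40 had another listed subunit within 1 Mb, in 15 clusters that held 39 low genes and 1 high gene. The low share in clusters, 97.5%, was near that of all listed subunits, 96 of 101, so the clusters below show where low genes lie and no excess of low genes. In 10 of these clusters all members were of 1 family. The GABA-A receptor genes GABRG1, GABRA2, GABRA4 and GABRB1 were low together (hg19 chromosome 4, 46037786 to 47428461). GABRA4 and GABRB1 are annotated on opposite strands and overlap by 685 bases at their starts. GABRB2 and GABRA6 were low in a cluster on chromosome 5, and GABRA5 and GABRG3 in one on chromosome 15.

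The voltage-gated potassium genes KCNA10, KCNA2 and KCNA3 were low together on chromosome 1 (111059839 to 111217655), and KCNA6, KCNA1 and KCNA5 on chromosome 12 (4918342 to 5155949). SCN1A, SCN9A and SCN7A were low together on chromosome 2 (166845670 to 167350757). Further low pairs were SCNN1G with SCNN1B, CACNG5 with CACNG1, CACNG7 with CACNG8, CHRNB3 with CHRNA6, and KCNK17 with KCNK16, the last 144 bases apart. CACNA2D4 and CACNA1C, an auxiliary subunit and a pore of calcium channels, were low within 905.993 kb on chromosome 12, and GLRB and GRIA2, of different receptor families, were low with 47.812 kb between them on chromosome 4. CACNG3 lay with the SCNN1G pair, and KCNIP1, KCNMB1 and GABRP lay within 460.561 kb on chromosome 5. KCNMB1 lies wholly within KCNIP1 on the opposite strand. Where exons of such genes overlap, fragments cannot be told apart unless strand was counted. Exon overlap was not computed, and no source used here states whether strand was counted.

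GABRE was the single high gene in such a cluster, 207.819 kb from the low gene CNGA2 (chromosome X, 150906923 to 150913776). The nearest listed gene of GABRE outside the channel families was MAGEA4, a cancer-testis gene on the low list, 27.953 kb away. For the other 4 high subunits the nearest such gene was on the high list: SMG9 for KCNN4, USP8 for TRPM7, TELO2 for CLCN7 and PALLD for CLCN3. Among all high genes, 76.3% had a high gene as their nearest listed neighbour. Low subunits had a low gene as nearest listed neighbour in 57 of 96 cases (59.4%), against 72.7% of all low genes. With neighbours from the channel families left out, the figure for low subunits was 43 of 96 (44.8%). No share over all low genes with their own families left out was computed, so this figure has no matched background.

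Low channel genes were longer at the median than other low genes. The median span of the 96 low subunits was 77.3 kb, against 11.96 kb for the 3684 other protein coding genes of the low list. Olfactory receptor genes were kept among these other genes, and spans of subunits on neither list were not computed. Whether length is a trait of low channel genes or of channel genes at large was therefore not tested. The shortest was KCNA10 at 1.96 kb, and CACNA1C, KCNMB2 and GABRG3 were among the longest at 727, 571 and 562 kb. The middle of the low subunits lay between 28.0 and 190 kb (quartiles). The 5 high subunits spanned 14.7 kb at KCNN4, 21.6 kb at GABRE, 30.6 kb at CLCN7, 111 kb at CLCN3 and 134 kb at TRPM7, a median of 30.6 kb. Other protein coding genes of the high list had a median of 33.4 kb. The spans of high and low subunits overlapped, with all 5 high genes inside the range of the low ones.

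Families differed in span as well. Low glutamate receptor genes had a median of 372 kb, and none was under 146 kb. Low potassium channel genes had a median of 37.9 kb, with KCNA10, KCNA5 and KCNA3 all under 4 kb. Names that are not subunits were then included on both lists. Over all 118 names the median was 60.6 kb on the high and 53.3 kb on the low list, the opposite order to subunits alone.

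**Figure D2:**
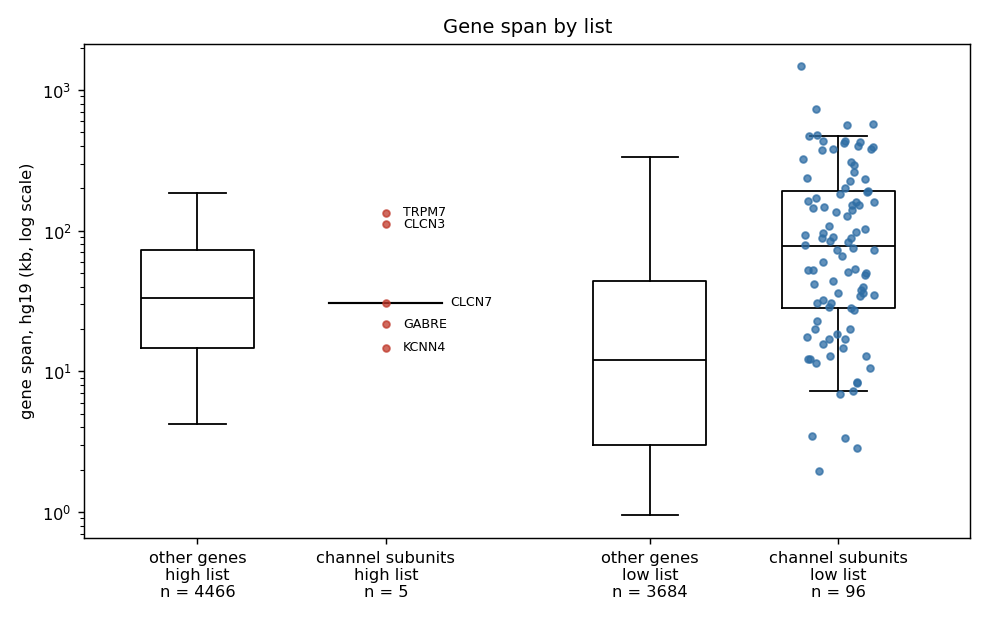
Gene span in kb (log axis) of channel subunits and of other protein coding genes on each list. Boxes give quartiles and median, whiskers the 5th and 95th percentiles, points single subunits, and the line among the 5 high subunits their median of 30.6 kb, against 77.3 kb for the 96 low subunits.

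CpG content was compared over all windows. RefSeq gave windows of 300 bases, 250 before and 50 after the start, for 71 of the 101 subunits, 5 high and 66 low. The ratio of observed to expected CpG is 1 where the dinucleotide is as frequent as the C and G content predicts, and several windows of 1 gene were averaged. It was 1.19 at TRPM7, 1.15 at CLCN7, 0.930 at GABRE, 0.654 at CLCN3 and 0.223 at KCNN4. The 66 low subunits had a median of 0.514 (quartiles 0.289 and 0.738), from 0.0905 at P2RX3 to 1.07 at CACNA1C. The groups overlapped widely.

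Other protein coding genes had medians of 0.862 on the high and 0.299 on the low list. A ratio over 0.6, a usual mark of CpG-rich promoters, was reached by 27 of 66 low subunits (40.9%), against 25.6% of other low genes and 47.7% of all 27305 RefSeq genes with a window. Here and for the motifs below, the RefSeq genes with a window include non-coding genes, unlike the other groups. Olfactory receptor genes were kept among the other low genes. CACNA1C, GLRB, GABRA4, GABRB2 and GRIK3 had the highest ratios among low subunits, 0.970 to 1.07, above the median of the high list. Of the 5 high subunits 4 passed 0.6, against 89.2% of other high genes. KCNN4 was the exception, below the median of low channel genes.

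**Figure D3:**
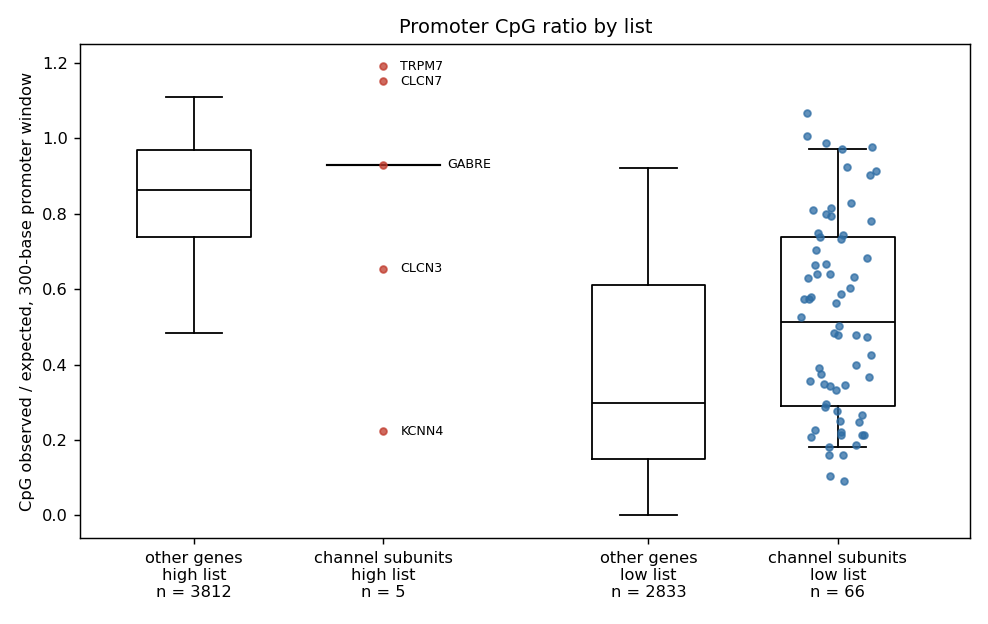
CpG observed to expected ratio in the 300-base promoter window of channel subunits and other protein coding genes on each list. Boxes give quartiles and median, whiskers the 5th and 95th percentiles, and the line among the 5 high subunits their median. KCNN4 at 0.223 lies far under TRPM7 at 1.19, and the low subunits spread from 0.0905 to 1.07.

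Short motifs were counted on both strands of the same windows. The GC box GGGCGG was in the windows of all 5 high subunits and of 40 of 66 low subunits (60.6%), against 81.1% and 33.7% of other high and low genes and 48.3% of all RefSeq genes. The TATA box TATAAA was in 0 of 5 high and 7 of 66 low subunits (10.6%), against 8.0% and 23.6% of other high and low genes and 3819 of all 27305 RefSeq genes. Whether these shares differ beyond chance was not tested.

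The left arm of RE1, the element bound by REST, a repressor of neuronal genes outside the nervous system, was searched as TTCAGCACC. It was in the windows of 3 of 66 low subunits (4.55%), against 0.671% of other low genes and 0.469% of all RefSeq genes, and in 0 of 5 high subunits. REST and its partner RCOR1 were both on the high list, as were 22.3% of all protein coding genes. The 3 genes are shown over 30 bases in the direction of the motif, with the left arm in capitals, in GRCh38.p14. They lie at chr4:157220379-157220408 (minus strand, for a gene on the plus strand), chr17:63523125-63523154 and chr16:24256092-24256121 (both plus strand).
GRIA2: TTCAGCACCgaggacagcgcctcgctcccc
KCNH6: TTCAGCACCaaggcgtggacagctcccggg
CACNG3: TTCAGCACCacggaccttggcgcccccagg
The core of the right arm, GGACAG, followed after 2 bases in GRIA2 and after 7 bases in KCNH6, and was not found in the printed bases of CACNG3. These matches are letters in a window and do not show binding. The motif was chosen after the data were seen, and whether REST bears on list membership was not tested.

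The other 3 high names matched the rule by spelling alone. GRINA (chromosome 8, 145064226 to 145067583) encodes a membrane protein of the family of apoptosis regulators called Lifeguard or TMBIM, not a subunit of the NMDA receptor. TRPC4AP (chromosome 20, 33590207 to 33680674) encodes a protein that binds TRPC4. GRINL1A (chromosome 15, 57884231 to 58027793) is an older symbol that RefSeq gives as a synonym of GCOM1 and of POLR2M, a gene for an RNA polymerase II subunit.

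The 13 names of antisense or other transcripts were all low and are named after 7 channel genes. Among the 224 other listed names that end in AS or AS with a number, 218 were low (97.3%), so the channel names stood as such names did in general. RefSeq gives 10 of the 13 as long non-coding RNAs and TRPC5-AS1 as a protein coding gene, TRPC5OS, and 2 were not matched. Those at CACNA1C (CACNA1C-AS1 to CACNA1C-AS4) and TRPC5 (TRPC5-AS1) accompanied a low host gene. The other 8 are named after KCNQ1 (KCNQ1-AS1 and KCNQ1DN), KCNQ5 (KCNQ5-AS1 and KCNQ5-AS2), KCNAB1 (KCNAB1-AS1 and KCNAB1-AS2), KCND3 (KCND3-AS1) and GRIK1 (GRIK1-AS1). Those channel genes were on neither list. KCNQ1DN was placed with KCNQ1 by name alone, and whether it overlaps that gene was not checked. Whether exons of an antisense gene and its host overlap was not computed. Where they do, fragments cannot be told apart without a stated strand setting.

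Channel genes outside the name rule were counted from a separate list of 138 genes. Of these, 18 were high (13.0%), 39 low (28.3%) and 81 on neither list, so 31.6% of the listed ones were high, against 4.95% of the listed subunits under the name rule and 50.6% of all listed symbols. Over all protein coding genes 22.3% were high and 18.8% low, so the high share of these channels too was under the background and the low share over it. The high genes included channels of organelles, of cell volume and of membrane stretch. VDAC1, VDAC2 and VDAC3, pores of the outer mitochondrial membrane, were all high, as was MCU, the pore of the mitochondrial calcium uniporter. LRRC8A, LRRC8C and LRRC8D, subunits of the volume-regulated anion channel, were high and none of that family low. ITPR2 and ITPR3, which release calcium from the endoplasmic reticulum, and STIM1, its calcium sensor, were high. PIEZO1, a channel opened by membrane stretch, was high, and its paralog PIEZO2 low.

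The remaining high genes of this second list were ANO6, a lipid scramblase and channel, the water and glycerol channel AQP3, BEST1, CLIC1, CLIC4, PKD2 and TTYH3. Low were all 5 serotonin receptor channels (HTR3A to HTR3E), all 3 otopetrins, 8 of 20 connexins including GJA1, 7 of 15 aquaporins, ANO3, ANO4 and ANO5, the acid-sensing channels ASIC2 and ASIC5, and NALCN, a sodium leak channel of neurons. DPP6 and DPP10, auxiliary subunits of the KCND channels, were low, as were KCND2 and KCNIP1 of the same complex, while KCND1, KCND3, KCNIP2, KCNIP3 and KCNIP4 were on neither list.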

How the data were processed

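Trizol RNA was cleaned with DNase before TruSeq library preparation, per the labels' protocols. Tools listed in the submitters' processing notes are Cufflinks 2.2.1 with Cuffdiff, TopHat2 and CASAVA 1.8.2, with the build hg19; no source used here gives their settings, annotation or strand setting. The estimated counts in the deposited Cuffdiff table, fragments per locus before scaling per the file headers, were summed per library for depth alone.

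The deposited lists had 4531 and 4436 rows (4419 low symbols). Each symbol was counted once, and 4 symbols on both lists, none a channel, were left out. Symbols were matched to RefSeq by symbol or a unique synonym (8717 of 8942, and 115 of 118 channel names). Neighbours were genes within 1 Mb. Every high name is given with its position, and low names are given by family; protein sequences planned for display were not used here. Counts used Python 3.11.15 and pandas 2.3.3, and the functions were checked on simulated sequences and positions. No test was run. The names, classes and the list of other channels were chosen with earlier results of these data known, and the motifs and the windows shown were chosen after the data were seen. Some genes are counted but not reported here by name.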

Additional observations from a re-analysis of the deposited data

How the results depend on the processing

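The main count was 8 high and 110 low names (6.78% high). Its 95% exact binomial interval, 2.97 to 12.9%, treats names as independent draws. The names are all those the rule took and share families and clusters, so the interval measures no spread between samples. Leaving out names that are not subunits gave 5 high. Pore-forming subunits alone gave 5 high, and auxiliary subunits alone 0 high and 13 low (0% high). Adding the other channel families gave 26 high (14.9%). Counting every row changed nothing. The share of all listed genes on the high list, 50.6%, was 54.2% for protein coding genes and 54.4% with LINC, defensin, keratin associated and olfactory receptor genes left out. The median span on the high list minus that on the low list was 7.28 kb over all names. It was -52.2 kb for pore-forming subunits and -46.6 kb for all subunits, so the order turned. Names that are not subunits moved the high median from 30.6 to 60.6 kb and the low median from 77.3 to 53.3 kb. Causes of span differences were not tested. The high minus low difference in median CpG ratio was 0.459. It stayed positive with pore-forming subunits, all subunits, the richest window of each gene or GC share. The settings with all subunits, for span and CpG, and with the richest window were chosen after seeing the data. Protein length was not run. No paired analysis was possible because the lists name no libraries and no result comes from a test, and for the same reason no replicate could be left out. With 5 high subunits, medians on that list rest on single genes.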
